A study of Mus musculus with 8 samples.

Results

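Arginine and polyamine metabolism was followed through 8 genes, Arg1, Arg2, Nos2, Slc7a2, Odc1, Ass1, Sat1 and Srm, out of 32285 genes counted in each of 4 droplet libraries. The genes were chosen by their place in the pathway, but with earlier results of these data known. Their unique molecular identifiers (UMIs) were summed by library, by hashtag label and by marker-defined cell class. The libraries were made from sorted CD45+CD11b+Ly6Chi cells, a gate meant for monocytic myeloid-derived suppressor cells, taken either from MC38 tumors (a transplanted mouse colon carcinoma line) or from blood of mice bearing them. The mice were C57BL/6J of either sex, 8 to 10 weeks old. All carried floxed Ythdf2 alleles, and the Ythdf2-cKO mice also carried Cre at the Lyz2 locus (Lyz Cre+), which is active in myeloid cells and not only in monocytes. Control mice were not irradiated (the paper's methods name a sham treatment). The other mice were sampled 3 days after a single dose of 20 Gy of ionizing radiation (IR) local to the tumor. The blood IR groups thus held blood of mice whose tumor was irradiated. Each library held cells of WT and of cKO mice, stained with different hashtag antibodies before mixing, which gave 8 groups. Cells of 5 mice were pooled in every group, so each group was 1 sample, no comparison of groups had replicates to test with, and every interval given is a 95% interval of counting error only.

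Arginine enters macrophages through cationic amino acid transporters such as SLC7A2 and is then contested by enzymes that lead to different products. Arginases (ARG1 in the cytosol, ARG2 in mitochondria) cleave it to urea and ornithine, and the inducible nitric oxide synthase NOS2 oxidizes it to citrulline and nitric oxide. ASS1 (argininosuccinate synthase) begins the return of citrulline to arginine. Ornithine feeds polyamine synthesis through ornithine decarboxylase (ODC1) and spermidine synthase (SRM), and SAT1 acetylates spermidine and spermine for export or breakdown. Myeloid suppressor cells and tumor macrophages are known for limiting T cells by consuming arginine and by releasing nitric oxide.

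All 8 genes are protein-coding and were placed on mm10 with the GENCODE vM21 annotation. Arg1 (ENSMUSG00000019987) is a reverse-strand gene of chromosome 10 (24915221 to 24927484), and Nos2 (ENSMUSG00000020826) a forward-strand gene of chromosome 11 (78920787 to 78960254). Arg2 (chromosome 12, 79130777 to 79156301) and Odc1 (chromosome 12, 17544794 to 17551505) share a chromosome and the forward strand. Slc7a2 lies on chromosome 8 at 40862396 to 40922308, Ass1 on chromosome 2 at 31470207 to 31520672, and Srm on chromosome 4 at 148591503 to 148594993, each on the forward strand. Sat1 is a reverse-strand gene of the X chromosome, at 155213132 to 155216449.

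Each group held 2144 to 4642 cells and 18921741 to 24650766 gene UMIs. A count of 0 in a group allows at most 0.122 to 0.159 counts per 1e6 gene UMIs (CPM). Several features of the libraries bear on the values. The Ythdf2 UMIs went against the hashtag labels, at 32.8 to 55.5 CPM in cells labelled WT and 303 to 373 CPM in cells labelled cKO, so WT and cKO name hashtag labels throughout. Lyz2, where Cre is inserted, was at 5607 to 14106 CPM in cells labelled WT and at 82.4 to 138 CPM in cells labelled cKO. The tumor matrices also overlapped: 7327 of the 13144 barcodes above 500 UMIs in the control matrix lacked 20 hashtag UMIs there, and 7325 of them were hashtagged in the IR matrix. Kept tumor cells had, at the median, 0.455 (control) and 0.589 (IR) times as many UMIs under the same barcode in the other tumor matrix. Kept barcodes shared between libraries numbered 7 to 32 per pair. The WT rule asks only that the WT hashtag be no lower than the other. In tumor control, 1529 of the 2529 WT cells (60.5%) had a WT hashtag below 4 times the other, in tumor IR 708 (22.7%), and in the blood libraries 1.79% and 1.41%. In those 1529 cells Arg1 was at 966 CPM, against 2489 CPM in the other 1000, while Lyz2 was at 7241 and 6476 CPM. Macrophage-like cells were 47.0% of the 1529 and 73.9% of the other 1000, against 62.0% of the cKO cells. Leaving the 1529 out thus also changes cell makeup. For the group sums of members, comparisons of labels in tumor are therefore also described with a symmetric margin of 4 times for either hashtag. Comparisons of labels within classes and clusters and for other genes used the WT rule alone.

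The sorted gate did not hold a single cell type. Of blood cells, 68.7% were neutrophil-like, 12.9% monocyte-like and 12.2% nonclassical monocyte-like. Of tumor cells, 50.6% were macrophage-like, 11.7% monocyte-like and 23.9% fell in clusters that could not be named. A cluster with raised collagen and cycling genes, called fibroblast-like although the sort was for CD45, made up 4.28% of tumor cells but 11.7% of the cKO cells of control tumors and 1.22% of the cKO cells of irradiated tumors. Since group sums were compared, fewer cells of a type and less RNA per cell cannot be told apart in them.

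Arg1 was a tumor gene in these libraries. It stood at 1662, 2493, 3022 and 4226 CPM in tumor control WT, tumor control cKO, tumor IR WT and tumor IR cKO. In blood it had 0, 2, 9 and 2 UMIs in control WT, control cKO, IR WT and IR cKO, and the 9 UMIs of blood IR WT came from 0.0242% of the cells, that is 1 cell. In WT control, tumor was at least 11945-fold higher than blood, against a floor of 3 UMIs over the blood group. IR was above control under each label and cKO above WT under each treatment, beyond counting error. With the symmetric margin the labels in control tumors were level, at a log2 ratio of 0.00, but that margin also changed the makeup of the WT cells.

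Nos2 was likewise a tumor gene, but its tumor groups stood in another order. Its levels were 111 CPM (107 to 116) in tumor control WT, 66.6 (63.3 to 70.0) in tumor control cKO, 230 (223 to 237) in tumor IR WT and 339 (332 to 346) in tumor IR cKO. The 4 blood groups held 2, 3, 1 and 0 UMIs. The cKO cells thus had the lowest Nos2 level in control tumors and the highest in irradiated ones. The transporter gene Slc7a2 was at 122, 188, 102 and 160 CPM in the tumor groups in the order given for Arg1, so cKO was above WT under each treatment. With the symmetric margin the WT cells of control tumors were at 189.9 CPM, level with cKO. Slc7a2 had 0 UMIs in 3 blood groups and 2 in blood IR WT.

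Arg2 did not follow Arg1. It was at 47.7 and 34.6 CPM in control tumors (WT, then cKO), at 94.5 and 86.4 CPM in irradiated tumors, and at 98.0 to 121 CPM in blood. Every blood group was above every tumor group for Arg2, although the intervals of the nearest pair overlap (93.6 to 103 CPM in blood control cKO and 90.3 to 98.8 CPM in tumor IR WT). Ass1 was at 274 and 138 CPM in control tumors and at 428 and 464 CPM in irradiated tumors. In blood Ass1 was at 18.4 and 20.2 CPM in control and at 30.8 and 34.4 CPM after IR, so the IR groups were the higher ones in both tissues.

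The polyamine genes did not share a pattern. Odc1 was at 270, 351, 247 and 269 CPM in the tumor groups and at 10.5 to 13.7 CPM in blood. Srm was at 47.2 and 80.7 CPM in control tumors, at 26.7 and 22.8 CPM in irradiated tumors and at 8.17 to 11.2 CPM in blood, so for Srm the control tumors were the highest groups. Sat1, the gene of polyamine acetylation, was at 448, 341, 604 and 616 CPM in the tumor groups and at 749, 916, 859 and 950 CPM in the blood groups. Sat1 was thus the one member besides Arg2 whose 4 blood groups all lay above the 4 tumor groups.

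**Figure D1:**
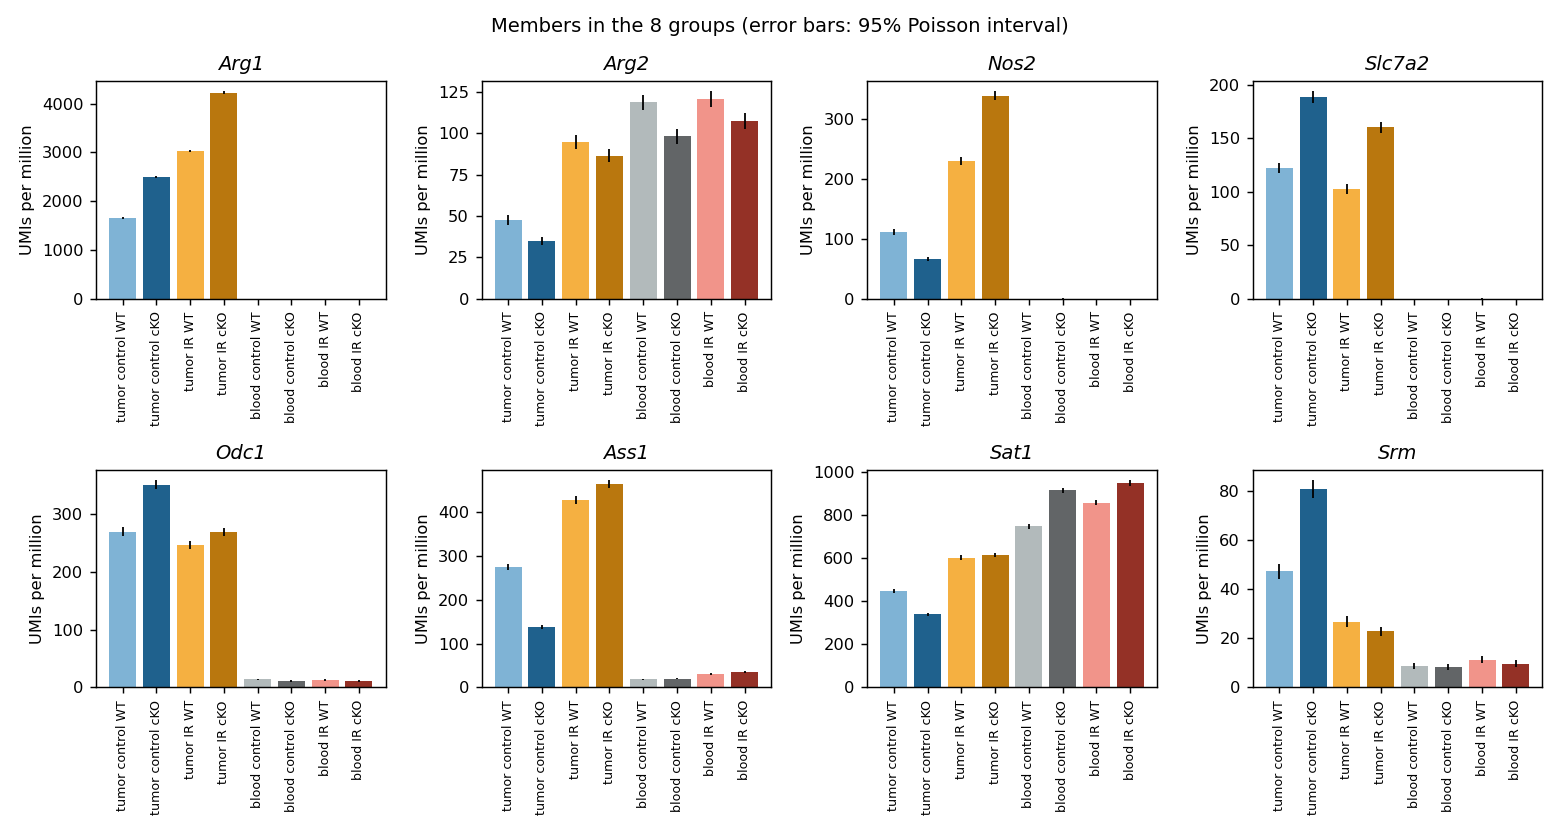
CPM (y axis) of each member in the 8 groups (x axis), as bars from 0 with 95% Poisson intervals and a separate scale per gene. Arg1, Nos2 and Slc7a2 are seen only in the tumor bars, Arg2 and Sat1 are highest in blood, and Nos2 spans 66.6 to 339 CPM between the tumor groups.

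Tumor was compared with blood as the log2 ratio of CPM, with 1 UMI added to each sum, and a gene was called where the ratio passed 1 in size and the groups together held 100 UMIs. The tissues were in different libraries, so tissue and library cannot be told apart. The background was high: 35.4% of all genes were called in WT control, 43.8% in cKO control, 32.4% in WT IR and 32.3% in cKO IR. Of the members, 6 of 8 were called higher in tumor in each of the 4 comparisons (Arg1, Nos2, Slc7a2, Odc1, Ass1 and Srm). Arg2 was called lower in WT control and cKO control, with log2 ratios of −1.31 (−1.42 to −1.21) and −1.50 (−1.62 to −1.38), and Sat1 in cKO control, at −1.43 (−1.47 to −1.39). After IR neither passed the limit, with Arg2 at −0.35 and −0.31 and Sat1 at −0.51 and −0.63 in WT and cKO. With genes at 0 in blood set to the floor, the median of the members was 4.02 to 4.18 on the log2 scale, against −0.10 to 0.23 for all genes.

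Odc1 was higher in tumor by 4.30, 5.06, 4.25 and 4.599 on the log2 scale in WT control, cKO control, WT IR and cKO IR. Ass1 was higher by 3.89, 2.76, 3.80 and 3.75 in the same order, and the cKO control value, the smallest, was the group in which tumor Ass1 was lowest. Srm was higher by 2.43, 3.30, 1.24 and 1.22 in the group sums. Slc7a2 was at least 876-fold, 1206-fold and 1010-fold higher in WT control, cKO control and cKO IR, against the floor of 3 UMIs over the blood group.

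The tissues also differed in their cells, and within a class some members had another direction. Monocyte-like cells were numerous enough in both tissues after IR. In them Srm was lower in tumor, at −3.33 (−4.67 to −2.43) in WT, from 8 against 174 UMIs, and at −2.60 (−3.67 to −1.82) in cKO, from 12 against 119 UMIs. Arg2 was higher in tumor in these cells, by 3.79 (3.40 to 4.29) in WT and 3.84 (3.40 to 4.41) in cKO, and Sat1 was at 0.30 and 0.13. For Srm, Arg2 and Sat1 these directions are opposite to those of the group sums. The class joined different clusters, however. In irradiated tumors 616 WT and 673 cKO cells were of cluster 6, and in blood after IR 623 and 513 were of cluster 4. Only 4 WT and 4 cKO cells of irradiated tumors were of cluster 4, so tissue and cell state cannot be told apart here. Odc1 (3.38 and 3.86) and Ass1 (3.40 and 3.51) were higher in tumor within monocyte-like cells too.

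The members were next placed in cell classes. Arg1 in tumor was carried by macrophage-like cells, at 4552 CPM, and by monocyte-like cells, at 3241 CPM, which held 86.9% and 11.2% of its tumor UMIs. Every other named class stood at 113 CPM or less. NK cell-like cells, which should lack Arg1, held it at 40.5 CPM, and 10% of them had an Arg1 UMI (median depth 2492.5 UMIs), against 83.9% of macrophage-like cells (median depth 7522). Nos2 was at 244 CPM in macrophage-like and 458 CPM in monocyte-like cells and at 8.47 CPM in NK cell-like cells. The low-ranked barcodes taken as the measure of free RNA had Arg1 at 1918 and 2598 CPM and Nos2 at 144 and 300.0 CPM in the tumor control and tumor IR libraries. Values near those of the NK cell-like cells are read as background.

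The 4 macrophage-like clusters differed in their mix of pathway genes. Cluster 3, led by the protease genes Mmp13 and Mmp12, had Arg1 at 6259 CPM over the tumor groups together, with Nos2 at 378, Ass1 at 327 and Odc1 at 371 CPM. Cluster 2, led by the MHC class II genes H2-Ab1 and H2-Eb1 and by Cxcl9, had Arg1 at 3630, Nos2 at 230, Ass1 at 522 and Odc1 at 236 CPM. Cluster 12, led by Fcrls, Ccl8, Folr2, Gas6 and Mrc1, held Arg1 at 4626 CPM with Nos2 at 43.8 and Ass1 at 38.3 CPM. In cluster 12 the polyamine gene Odc1 was at 721 CPM and the transporter gene Slc7a2 at 295 CPM. The order of clusters 3 and 12 for Arg1 was not the same in every group, since control WT had 3446 CPM in cluster 3 and 4031 CPM in cluster 12. Slc7a2 was likewise at 346 CPM in cluster 12 and 177 CPM in cluster 2 of control WT, but at 287 and 348 CPM in control cKO. Genes of the member list were left out when the clusters were made, but clusters and levels come from the same cells, so these are descriptions.

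Monocyte-like cells of tumor, nearly all in cluster 6 led by the interferon-response genes Ifit1bl1, Ifit2 and Rsad2, paired Nos2 at 458 CPM with Ass1 at 678 CPM. Their Srm was at 2.70 CPM (1.73 to 4.01). Conventional dendritic cell-like cells also had high Ass1, at 553 CPM in tumor and 77.7 CPM in blood. Their Nos2 was at 3.15 to 7.41 CPM in 3 tumor groups, at 45.1 CPM (33.7 to 59.1) in tumor IR cKO and at 0 in blood. Neutrophil-like cells of blood lacked Ass1 nearly altogether, at 0.257 CPM (0.111 to 0.506).

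Arg2 marked neutrophil-like cells instead. These had it at 279 CPM (273 to 285) and held most (95%) of all blood Arg2 UMIs, whereas blood monocyte-like cells had it at 5.96 CPM. In tumor the highest Arg2 was in the unnamed cluster 13, at 525 CPM (485 to 568). That cluster was led by Ccl3, G0s2, Schip1 and Ccl4, had 2 raised neutrophil markers (Cxcr2 and Hdc), a median depth of 1906.5 UMIs and 563 of its 604 tumor cells in the IR library. It had Ass1 at 10.96 CPM and Slc7a2 at 5.06 CPM.

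Srm stood apart from the other members. Fibroblast-like cells, 4.28% of tumor cells and with a median depth of 26102 UMIs, had Srm at 167 CPM and held 58.2% of its tumor UMIs. Macrophage-like cells had Srm at 29.0 CPM, and within them the cycling cluster 16 had the most, at 56.7 CPM. Odc1 was broad, with its highest level among the named classes in T cell-like cells of tumor (677 CPM in 87 cells) and 242 to 272 CPM in NK cell-like and fibroblast-like cells. Sat1 was highest in nonclassical monocyte-like cells of blood, at 1324 CPM (1308 to 1340), against 638 CPM in monocyte-like cells of blood.

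**Figure D2:**
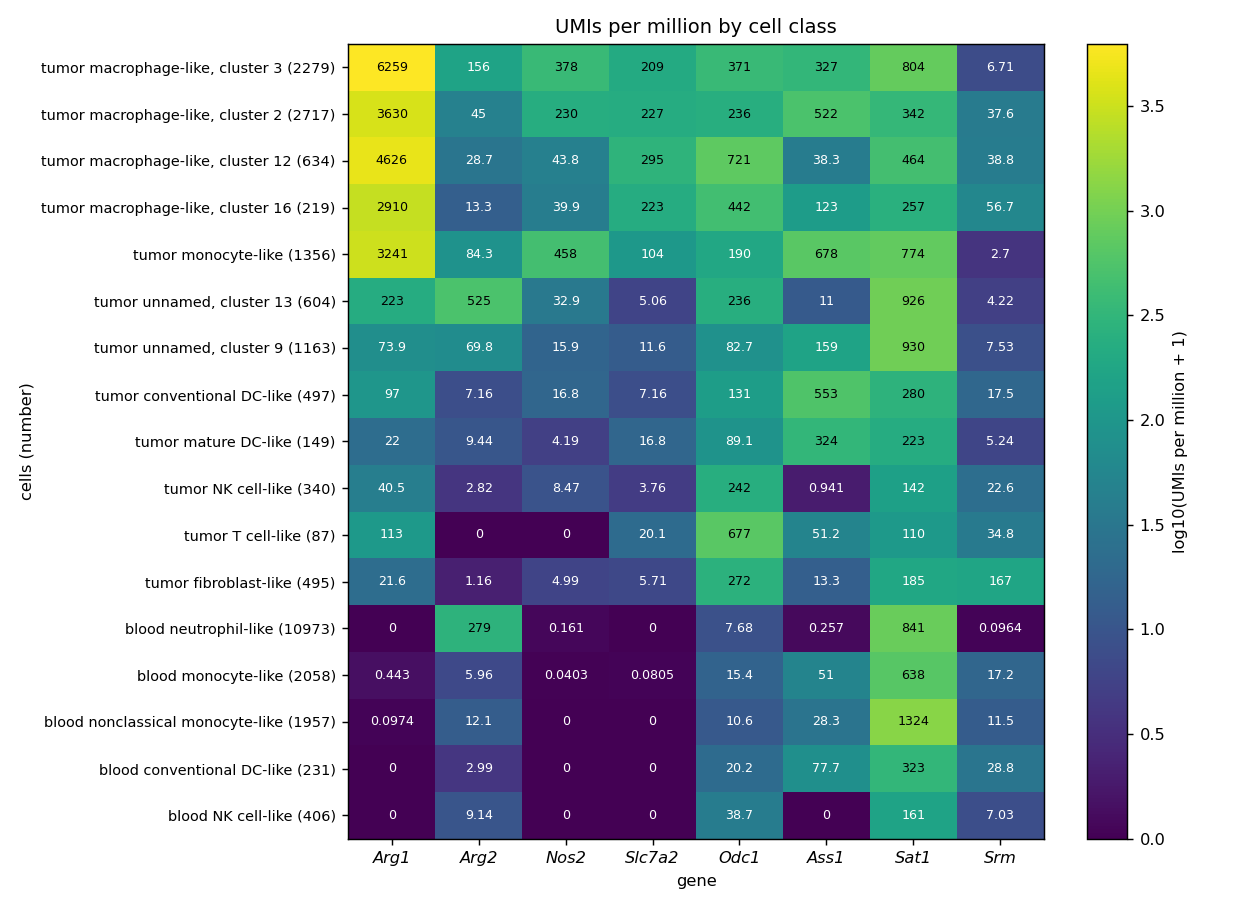
CPM of the 8 members (columns) in cell classes or clusters of tumor and blood (rows, with the number of cells), with colour giving log10 of the level plus 1 and the level printed in each field. Arg1 is at 2910 CPM or more in the 4 macrophage-like clusters and the monocyte-like cells, whereas Nos2 is at 43.8 and 39.9 CPM in clusters 12 and 16.

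Levels of Arg1 over the 35 points formed by a named class in a group with at least 50 cells were most like those of Il1a (Pearson r 0.98), Ccl12 (0.97), Nos2 (0.96), Slc7a2 (0.96) and Lrp12 (0.96). Nos2 was most like C3ar1 (0.97), Mmp13 (0.96), Arg1 (0.96), Il1a (0.95) and Ccl12 (0.95). These are descriptions over log2(CPM + 10), and the points share libraries and differ in depth and tissue. Over the 18 tumor points alone the genes most like Arg1 were Clec4d, Tfec, C3ar1, C5ar1 and Gm5150 (each 0.98), with Nos2 at 0.96. Those most like Nos2 were F10, C3ar1, Slc11a1, Cndp2 and A930007I19Rik (each 0.97). Arg2 had an r of 0.32 with Arg1 over all points and of 0.98 over the 18 tumor points, and cluster 13, in which Arg2 was high and Arg1 was at 223 CPM, was unnamed and so not among the points.

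The effect of IR was asked under each label and in each tissue. In WT tumors 1 of 8 members was called higher and none lower, against 5.68% of all genes called. The called member was Nos2, with a log2 ratio of 1.05 (0.98 to 1.12). Arg2 and Arg1 came close, at 0.99 (0.87 to 1.10) and 0.86 (0.84 to 0.88), then Ass1 at 0.64 (0.60 to 0.69) and Sat1 at 0.43 (0.39 to 0.47). Slc7a2 at −0.25 (−0.34 to −0.17), Odc1 at −0.13 (−0.18 to −0.07) and Srm at −0.82 (−0.98 to −0.67) were lower. The median of the members was 0.54, against −0.13 for all genes. With the symmetric margin Nos2 was at 0.61, below the limit, Arg1 at 0.43 and Arg2 at 1.11.

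In cKO tumors 3 members were called higher and 1 lower after IR, against a background of 22.3% of all genes called. Nos2 was higher by 2.35 (2.27 to 2.43), a 5.09-fold difference, Ass1 by 1.75 (1.70 to 1.81) and Arg2 by 1.32 (1.201 to 1.44), and Srm was lower, at −1.82 (−1.96 to −1.69). Sat1 was at 0.85 and Arg1 at 0.76, below the limit, and Odc1 at −0.38 and Slc7a2 at −0.23. The median of the members was 0.81, against −0.18 for all genes. Scaling with TMM factors (trimmed means of ratios between groups) moved the median of all genes to 0.02 in WT and 0.03 in cKO tumors. It also moved the calls over all genes from 267 higher and 310 lower to 344 and 183 in WT tumors, and from 552 and 1826 to 854 and 1413 in cKO tumors. With TMM factors Arg1 (1.01) and Arg2 (1.14) in WT tumors and Sat1 (1.07) in cKO tumors passed the limit, and Odc1 in WT tumors changed sign, to 0.02.

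Cell makeup moved with these values. The fibroblast-like cells were 251 of 2144 cKO cells in control and 46 of 3762 after IR, and without them 10.2% of all genes were called in cKO tumors. The log2 ratios without them in cKO were 1.94 for Nos2, 1.33 for Ass1, 0.87 for Arg2, 0.32 for Arg1 and −1.40 for Srm. In macrophage-like cells alone Nos2 was higher after IR by 0.90 in WT and 1.955 in cKO, Ass1 by 0.51 and 1.35, Arg1 by 0.88 and 0.53, and Srm was at −0.80 and −1.12. Within the macrophage-like class the clusters shifted as well. Cluster 3 made up 30.2% of it in WT control and 54.0% in WT IR, and 14.8% and 53.4% in cKO, while cluster 12 made up 10.97% and 3.65% in WT and 26.4% and 4.28% in cKO. The part of these shifts in the group values was not tested beyond the within-cluster values.

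In clusters 2 and 3 Nos2 was higher after IR under both labels. It was also higher in the unnamed cluster 8, by 0.87 (0.41 to 1.36) in WT and 0.51 (0.12 to 0.93) in cKO. Cluster 9, where Nos2 was low, differed. In cluster 2 Nos2 was higher after IR by 0.53 (0.42 to 0.64) in WT and 1.28 (1.17 to 1.40) in cKO, and in cluster 3 by 0.75 (0.62 to 0.88) and 1.26 (1.08 to 1.44). In the unnamed cluster 9, where Nos2 was at 4.10 to 27.6 CPM, it was lower after IR in WT, at −2.62 (−3.95 to −1.73) from 9 against 58 UMIs, and higher by 1.68 (0.61 to 3.17) in cKO, from 42 against 7 UMIs. Arg1 was higher by 0.84 in WT and 0.15 in cKO in cluster 2, and by 0.80 and 0.44 in cluster 3. Srm in cluster 3 did not differ beyond counting error, at −0.08 (−0.95 to 0.83) in WT and −0.07 (−1.07 to 1.08) in cKO. In cluster 2 Srm was lower after IR, at −0.41 (−0.74 to −0.08) and −0.52 (−0.77 to −0.27), and in cluster 12 of cKO at −2.71 (−5.09 to −1.23), from 3 against 168 UMIs. Slc7a2 was at −0.17 and −0.76 in cluster 2 but at 0.16 under both labels in cluster 3, where the intervals included 0. Sat1 was higher after IR in cluster 2, by 0.22 in WT and 0.52 in cKO. In cluster 3 Sat1 was lower, at −0.25 (−0.32 to −0.17) and −0.21 (−0.30 to −0.12). Odc1 was at 0.11 and −0.22 in cluster 2 and higher in cluster 3, by 0.36 (0.24 to 0.48) and 0.56 (0.41 to 0.71). In cluster 12 of cKO Sat1 was at 0.62 and Odc1 at −0.79. Monocyte-like cells numbered 38 and 21 in control tumors and 620 and 677 in irradiated ones, fewer in control than the 50 cells asked for.

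In blood 5 members held 100 UMIs (Arg2, Odc1, Ass1, Sat1 and Srm) and none was called after IR, against 1.31% of all genes in WT and 1.39% in cKO. Ass1 had the largest difference, at 0.74 (0.56 to 0.93) in WT and 0.76 (0.58 to 0.95) in cKO. It was seen in monocyte-like cells, where Ass1 was at 33.3 and 35.6 CPM in control and at 60.9 and 63.2 CPM after IR (WT, then cKO), and in nonclassical monocyte-like cells, at 19.1 and 28.6 against 28.6 and 37.6 CPM. Arg2 in blood was at 0.02 (−0.05 to 0.10) and 0.13 (0.04 to 0.22), Sat1 at 0.20 and 0.05, and Odc1 at −0.08 (−0.32 to 0.15) and 0.07 (−0.21 to 0.36).

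Cells labelled cKO were then compared with cells labelled WT of the same library. In control tumors no member was called (4.88% of all genes were), with Ass1 at the limit, −0.99 (−1.06 to −0.93). Nos2 at −0.74, Arg2 at −0.46 and Sat1 at −0.40 were lower in cKO cells, and Srm at 0.77, Slc7a2 at 0.63, Arg1 at 0.58 and Odc1 at 0.38 were higher. The symmetric margin changed this picture: Arg1 was at 0.00 (2489 CPM in the 1000 remaining WT cells), Slc7a2 at −0.01 and Odc1 at −0.01, whereas Nos2 was at −1.29 and Ass1 at −1.02, which made 2 members called lower, against 8.19% of all genes called with that margin. The 1000 remaining WT cells were 73.9% macrophage-like, against 62.0% of the cKO cells. With TMM factors the calls over all genes went from 381 higher and 140 lower to 275 and 177, and Ass1 passed the limit, at −1.06.

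In irradiated tumors no member was called either, against 1.25% of all genes. Slc7a2 at 0.65 (0.57 to 0.72), Nos2 at 0.56 (0.51 to 0.61) and Arg1 at 0.48 (0.47 to 0.50) were higher in cKO cells, and with the symmetric margin they were at 0.49, 0.44 and 0.34. Ass1 at 0.12, Odc1 at 0.12, Sat1 at 0.03 and Arg2 at −0.13 were close to 0. Srm was at −0.23 (−0.40 to −0.06) in all cells but at 0.45 without the fibroblast-like cells and at 0.38 in macrophage-like cells.

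In macrophage-like cells of control tumors the labels differed by 0.64 for Arg1, 0.66 for Slc7a2, −0.74 for Nos2 and −0.91 for Ass1, and in irradiated tumors by 0.30, 0.43, 0.32 and −0.08. Cluster 12, low in Nos2 and Ass1, held 26.4% of the macrophage-like cells labelled cKO and 10.97% of those labelled WT in control tumors. Within cluster 2 Nos2 was at −0.47 (−0.60 to −0.35) and Ass1 at −0.66 (−0.74 to −0.58) in control, and within cluster 3 at −0.16 (−0.36 to 0.05) and −0.39 (−0.58 to −0.20).

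In the group sums of blood none of the 5 members with 100 UMIs was called between the labels, against 2.25% of all genes in control and 0.664% after IR. Odc1 at −0.38 (−0.65 to −0.12) and Arg2 at −0.27 (−0.36 to −0.19) were lower in cKO cells of control blood and Sat1 was higher, at 0.29 (0.26 to 0.32). After IR the same genes were at −0.22 (−0.49 to 0.04), −0.17 (−0.25 to −0.09) and 0.15 (0.12 to 0.17). Nonclassical monocyte-like cells, the class richest in Sat1, made up 18.0% of cKO and 11.3% of WT cells of control blood. Within classes of control blood Sat1 was at −0.08 (−0.13 to −0.03) in neutrophil-like, 0.24 in monocyte-like and 0.25 in nonclassical monocyte-like cells. Arg2 in neutrophil-like cells was at −0.29 (−0.38 to −0.21) in control and −0.07 (−0.16 to 0.01) after IR. In monocyte-like cells Arg2 was at 0.92 (0.18 to 1.74) and −0.16 (−0.81 to 0.48). In nonclassical monocyte-like cells it was at −0.92 (−1.49 to −0.39) and, from 35 against 91 UMIs, at −1.33 (−1.96 to −0.78), past the limit.

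**Figure D3:**
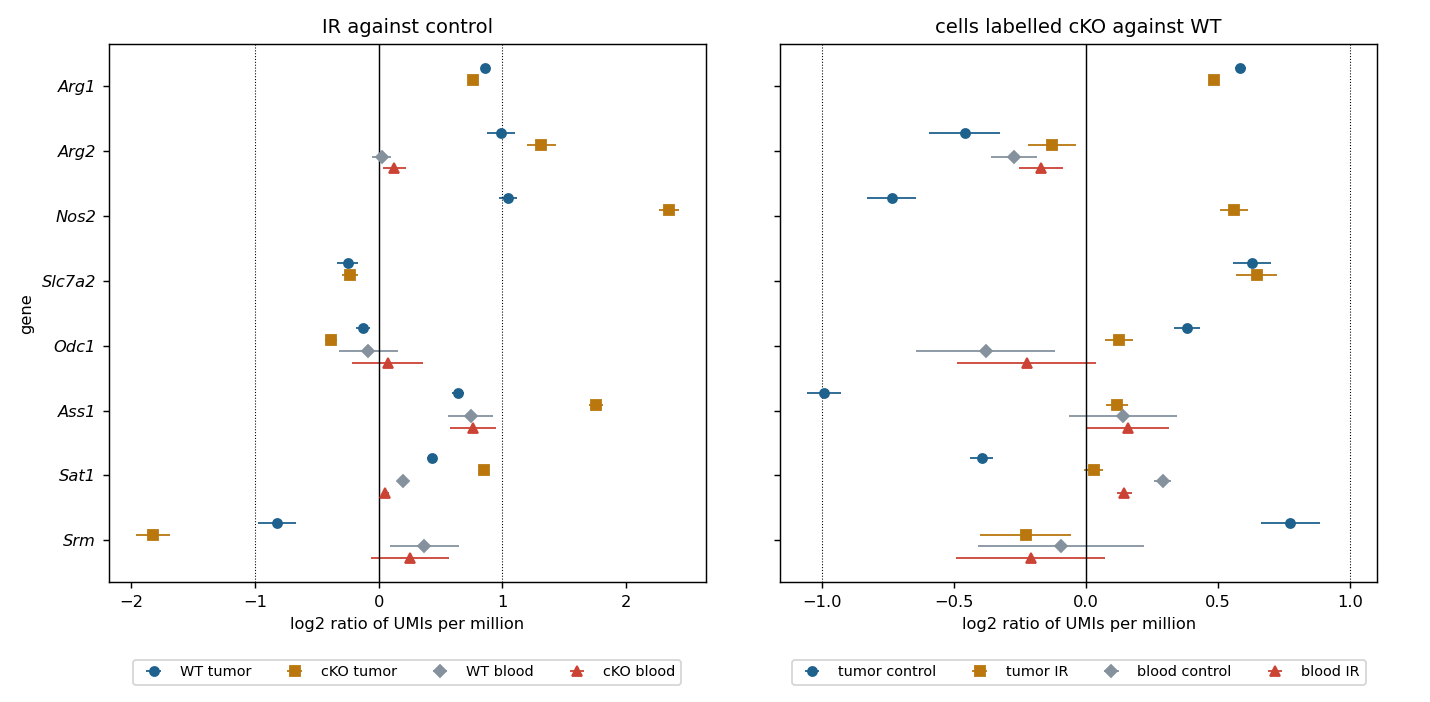
Log2 ratios of CPM (x axis) of members with at least 100 UMIs in the groups compared (y axis), for IR against control on the left and for cells labelled cKO against WT on the right, with 95% intervals of counting error. Dotted lines mark the limit of 1, which Nos2 passes in both tumor comparisons with IR (1.05 and 2.35) and which no member passes between labels.

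Arg1 and Nos2, whose products draw on the same substrate, were then asked for in single tumor cells. Cells were thinned to 2000 UMIs to give them equal depth, which left out 229, 148, 434 and 488 shallower cells of tumor control WT, control cKO, IR WT and IR cKO. Arg1 was detected in 43.3%, 57.3%, 55.6% and 64.5% of the cells in that order. Nos2 was detected in 10.6%, 8.42%, 19.04% and 27.5%. Cells with both genes made up 7.91% (6.84 to 9.09), 6.71% (5.65 to 7.90), 15.95% (14.6 to 17.4) and 24.5% (23.0 to 26.0).

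The genes were found together more often than the product of their shares, which was 4.599%, 4.82%, 10.6% and 17.8%. The odds ratios were 4.47, 3.19, 5.38 and 6.48. Most cells with Nos2 also had Arg1: 74.6%, 79.8%, 83.8% and 88.9%. The reverse was not so, since 18.3%, 11.7%, 28.7% and 37.9% of cells with Arg1 had Nos2. Without thinning the shares with both were 12.6%, 12.3%, 24.9% and 33.1%, and odds ratios within 5 depth bins were 4.15, 3.76, 6.07 and 7.81.

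Classes with neither gene enter these odds ratios as joint absence, so the shares were also taken within classes. In macrophage-like cells both genes were found in 11.9%, 9.07%, 22.4% and 30.9% of the cells and the odds ratios were 1.98, 1.43, 2.10 and 2.77. In monocyte-like cells of irradiated tumors the shares with both were 21.0% in WT and 33.3% in cKO, with odds ratios of 4.15 and 3.56. In NK cell-like cells, 1 of 253 thinned cells had both genes (0.395%), with 7.51% positive for Arg1 and 1.19% for Nos2.

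By macrophage-like cluster over the 4 tumor groups, 28.7% of the cells of cluster 3, 15.7% of cluster 2, 5.53% of cluster 16 and 5.11% of cluster 12 had both genes. In cluster 12, 92.5% of the cells had Arg1 and 5.28% had Nos2. Cells with both genes therefore lay mainly in clusters 2 and 3 and in the monocyte-like cluster 6 (27.3%), and the cells of cluster 12 had Arg1 largely alone.

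Over all tumor cells of a group, Nos2 was detected more often in cells with more Arg1 UMIs. Classes low in both genes add to the cells without Arg1, and these shares were not taken within classes. Among cells of tumor IR cKO with 0 Arg1 UMIs of 2000, 8.61% had Nos2 (7.06 to 10.4), with 1 to 3 UMIs 28.8%, with 4 to 9 UMIs 37.2%, with 10 to 19 UMIs 40.1% and with 20 or more 44.4% (39.9 to 48.9). In tumor control cKO the same shares were 3.99%, 7.23%, 12.7%, 12.6% and 17.7%. In tumor IR WT they were 6.96%, 21.1%, 24.5%, 33.3% and 39.8%, and in tumor control WT 4.76%, 13.3%, 21.0%, 20.0% and 23.5%. The step from no Arg1 to some was larger than the interval in all 4 groups except control cKO, where 2.78 to 5.53% and 4.69 to 10.6% overlap. Neighbouring steps above it mostly overlapped.

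**Figure D4:**
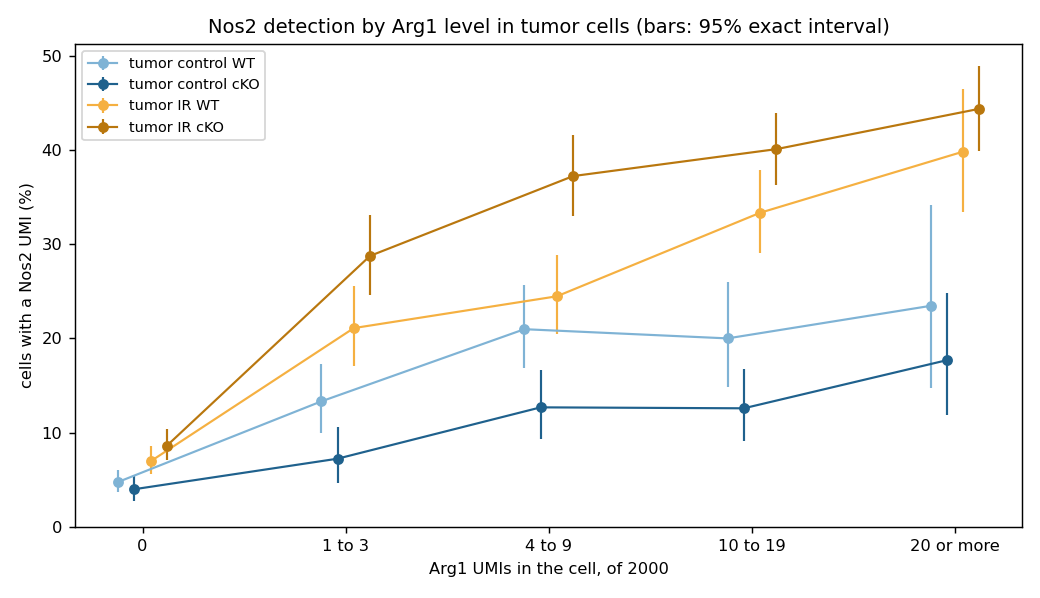
Share of tumor cells with a Nos2 UMI (y axis, percent) by the number of Arg1 UMIs in the cell after thinning to 2000 UMIs (x axis), for the 4 tumor groups, with 95% exact binomial intervals. The share is lowest in cells without Arg1 (3.99% to 8.61%), which include classes low in both genes, and reaches 44.4% in tumor IR cKO.

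After thinning, the median Arg1 count per cell was 0, 2, 1 and 4 UMIs in the 4 tumor groups and the highest cell had 42 to 66.

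The other pairs of members were described in the 5768 macrophage-like tumor cells with 2000 UMIs. Arg1 and its transporter partner Slc7a2 had the highest odds ratio, 3.58 (2.95 to 4.08 across the 4 groups). Nos2 went with Slc7a2 (2.13, from 1.98 to 2.69), with Arg2 (2.05, from 1.59 to 3.12) and with Ass1 (1.80, from 1.39 to 2.02). Arg1 and Ass1 were found together less often than the product of their shares, 27.9% against 31.3%, with an odds ratio of 0.46 (0.38 to 0.50). The inverse relation of Arg1 and Ass1 was also present within cluster 2 (0.56) and cluster 3 (0.57) but not in cluster 12 (2.96 over 587 cells, and 1.39 in the 1 group with a value) or in the monocyte-like cluster 6 (1.26). Arg1 and Odc1 were above 1 in cluster 2 (1.80), cluster 3 (2.84) and cluster 6 (2.27) but at 0.73 in cluster 12. Arg1 and Slc7a2 were at 3.71 in cluster 2 and 3.95 in cluster 3, and at 1.68 in cluster 12 (0.92 to 2.04 across groups). Odc1 and Ass1 had an odds ratio of 0.54 (0.39 to 0.62), and Nos2 and Srm 0.36 (0.28 to 0.79). Sat1 was near 1 with Arg1 (0.91), Odc1 (0.997) and Slc7a2 (0.93).

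**Figure D5:**
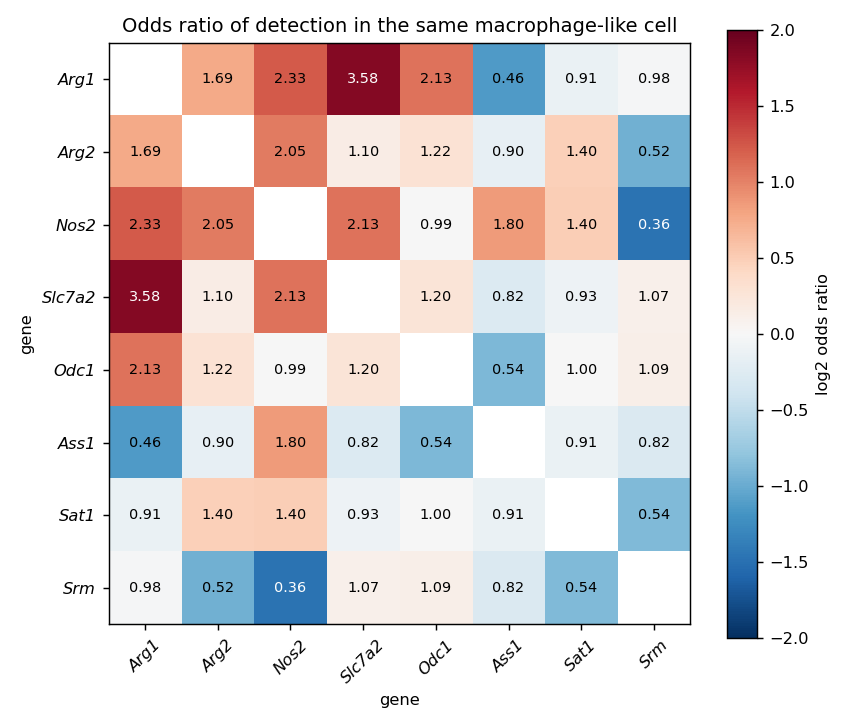
Odds ratio of detection in the same cell for each pair of members (rows and columns) in macrophage-like tumor cells thinned to 2000 UMIs, with colour on a log2 scale and the odds ratio printed. Over the clusters together, Arg1 is paired above 1 with Slc7a2 (3.58), Nos2 (2.33) and Odc1 (2.13) and below 1 with Ass1 (0.46).

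The rest of the pathway was read from a list of 39 other genes of arginine transport, nitric oxide and citrulline, the urea cycle and ornithine, polyamine synthesis and breakdown, and control of ODC. After IR, 1 of 31 list genes with 100 UMIs was called in WT tumors, against 5.68% of all genes. It was Paox, the peroxisomal polyamine oxidase, at 2.99 against 8.19 CPM (log2 ratio −1.44). In cKO tumors 2 of 32 were called higher (Smox and Gch1) and 11 lower, against the 22.3% of all genes. The spermine oxidase gene Smox was at 249 against 97.2 CPM (1.36). Lower were Prodh (proline dehydrogenase, −2.27), Mtap (methylthioadenosine phosphorylase, −2.19), Ddah2 (dimethylarginine dimethylaminohydrolase, −1.86), the transporter gene Slc7a6 (−1.58), Azin2 (antizyme inhibitor, −1.55), Paox (−1.50) and Qdpr (dihydropteridine reductase, −1.38). Without the fibroblast-like cells none of 30 was called higher and 6 lower, against 10.2% of all genes. In macrophage-like cells 5 of 29 were lower (Slc7a6, Qdpr, Gatm, Mtap and Paox), against 9.55% of all genes. The median of the list was −0.38 in WT and −0.80 in cKO tumors.

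Between the labels 1 of 33 list genes was called in control tumors, against 4.88% of all genes, and none of 30 in irradiated tumors, against 1.25%. The called gene was Azin2, at 6.71 CPM in cKO and 2.91 CPM in WT cells (1.19). In macrophage-like cells of control tumors it was not Azin2 but Gatm, the creatine synthesis enzyme glycine amidinotransferase, that was called. This was 1 of 29 list genes, against 2.86% of all genes. In blood none of 27 list genes was called in any comparison of IR or of labels, against 0.664% to 2.25% of all genes. Between tissues 13, 17, 9 and 10 list genes were called higher in tumor and 1, 2, 1 and 1 lower (WT control, cKO control, WT IR, cKO IR). These were out of 29, 31, 28 and 29 list genes with 100 UMIs. Of all genes, 35.4%, 43.8%, 32.4% and 32.3% were called in either direction. After IR the list counts were near this background only where direction was left aside. Among all genes after IR, 1615 of 10150 were higher in tumor and 1672 lower in WT, and 1600 and 1656 of 10090 in cKO. The list genes called after IR were nearly all higher in tumor. Gatm was at 143.8 against 1.95 CPM in WT control (6.17) and at 128 against 3.81 CPM in cKO IR (5.06), and Ddah2 at 30.1 against 1.35 CPM (4.44) in WT control. Gch1, which makes the cofactor that nitric oxide synthases need, was at 211 against 37.8 CPM in WT IR (2.48), and Slc3a2, the partner chain of several amino acid transporters, at 348 against 78.0 CPM (2.16).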

How the data were processed

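Single-cell libraries (10x Genomics 3′ chemistry) of 4 tissue and treatment combinations were analysed. The authors deposited raw UMI counts per gene and barcode, without normalization, made with Cell Ranger on mm10 with GENCODE vM23; the submitters' processing notes name Cell Ranger 6.0.1, and the file headers an earlier version. Reads matching several genes equally well are not counted by that tool. Every barcode with a count was present, and cell calling, hashtag assignment and clustering were repeated here. Barcodes were called as cells by an order-of-magnitude threshold on UMIs plus a test against the free-RNA profile of low-ranked barcodes. Cells had at least 500 UMIs, 200 genes, at most 25% mitochondrial UMIs and 20 hashtag UMIs. They were called WT where hashtag B0301 was at least B0302, and cKO where B0302 was at least 4 times B0301. The 6% of cells with the highest Scrublet scores (scanpy 1.11.5) were removed as doublets, since Scrublet's own threshold marked at most 2 cells per library. Cells were clustered with Seurat 5.3.0 (Louvain, resolution 0.8) without the members, Ythdf2, Lyz1 and Lyz2 among the variable genes, and named "X-like" from marker lists where at least 3 markers were raised. The thresholds for naming were set with the data known.

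Each level is a group's summed UMIs of a gene over all its gene UMIs (CPM). With 1 pool per group no p-value was computed. Intervals are exact Poisson (CPM), exact conditional binomial (ratios) and Clopper-Pearson (shares), at 95%, and cover counting error only. Named list genes were those past 1 on the log2 scale, at most 8 per comparison by size, plus the 5 genes most like Arg1 and Nos2; Gch1 in cKO tumors and the genes named for macrophage-like cells were added after their values were seen. The ratio and thinning code was tested on simulated counts. Alternatives changed cell calling, the hashtag rule, doublet and mitochondrial limits, scaling (TMM factors from edgeR 4.0.16), the cells summed, the UMI minimum, clustering and thinning. Gene positions came from GENCODE vM21, the annotation at hand for mm10. The members and all lists were chosen with earlier results of these data known. Columns of per-sample values that could not be used numbered 0.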

Additional observations from a re-analysis of the deposited data

Results flagged for a closer look

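The results below had opposite directions under the same contrast in different groups, each with an interval that did not include 0. Each group was 1 pool, so none of these differences was tested. For Nos2, cells labelled cKO were below those labelled WT in control tumors (−0.74 on the log2 scale) and above them in irradiated tumors (0.56). Within clusters of control tumors Nos2 was at −0.47 in cluster 2, −0.16 (−0.36 to 0.05) in cluster 3 and 0.55 (0.03 to 1.10) in cluster 8. Ass1 was at −0.99 in control and 0.12 in irradiated tumors, but in macrophage-like cells it did not turn, at −0.91 and −0.08 (−0.13 to −0.02). Srm turned in the other way, from 0.77 in control to −0.23 in irradiated tumors, and without the fibroblast-like cells the second value was 0.45. After IR in WT cells, Srm was lower in tumor (−0.82) and higher in blood (0.37). In control libraries Odc1 was higher in cKO cells of tumor (0.38) and lower in cKO cells of blood (−0.38), and Sat1 was lower in cKO cells of tumor (−0.40) and higher in cKO cells of blood (0.29), though in neutrophil-like cells of blood it was at −0.08 (−0.13 to −0.03). With the symmetric hashtag margin Odc1 in control tumors was at −0.01.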

How the results depend on the processing

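In the comparisons of IR and of labels no called member changed sign under the alternatives run. Within cluster 3, which was not among these alternatives, Arg2 in cKO tumors had the opposite sign after IR. Between tissues only the counts of called members were recomputed, and within monocyte-like cells Srm had the opposite sign. After IR in WT tumors, members called higher (1) numbered 2 without Scrublet removal (6.48% of all genes called), 3 with TMM factors (5.19%), 2 with UMIs of the same barcodes from the other tumor matrix (4.97%), and 0 in macrophage-like cells (3.36%) or without the fibroblast-like cells (5.54%), the last an alternative chosen after seeing the data. Members called lower (0) numbered 1 with the other matrix and 1 without the fibroblast-like cells. Between the labels in control tumors, members called lower (0) numbered 1 with the order-of-magnitude cell threshold alone (4.48%), 2 with the symmetric hashtag margin (8.19%) and 1 with TMM factors (4.24%). With no minimum of UMIs, blood gained 2 members higher (IR, WT), 1 lower (IR, cKO), 1 higher (labels, control) and 2 lower (labels, IR), all from genes with few UMIs. No share of all genes is given for that setting, so these counts are not read further. The share of cells with Arg1 and Nos2 in control WT (7.91%) was 3.91% at 2 UMIs or more, 11.9% in macrophage-like cells, 11.4% at 4000 UMIs, 12.6% unthinned and 13.3% with the symmetric margin. In control cKO (6.71%) it was 3.01%, 9.07%, 8.71% and 12.3% in the first 4 of these settings. In IR WT (15.95%) it was 7.92%, 22.4%, 24.7%, 24.9% and, with the symmetric margin, 18.99%. In IR cKO (24.5%) it was 13.1%, 30.9%, 32.8% and 33.1%. The order of control WT and control cKO held in these settings, and with the symmetric margin both control values lay below both IR values.

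No paired analysis was possible because each label had 1 pool per library, with no replicate number to pair or leave out. Labels were compared within each library, and no model of the label across the 4 libraries was run. Blood Arg1, Nos2 and Slc7a2 had 0 to 9 UMIs per group, too few for comparisons within blood. The excess of cells labelled WT with a mixed hashtag in tumor control limits the comparison of labels there, and shared barcodes limit comparisons of the tumor libraries. Intervals leave out differences between mice, sorts and libraries.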
